A study of Mus musculus with 6 samples.

Results

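The BCL2 family genes described here are the 4 pro-survival genes Bcl2, Bcl2l1, Mcl1 and Bcl2a1b, the 4 BH3-only genes Bcl2l11, Pmaip1, Bbc3 and Bid, and the pore-forming genes Bax and Bak1. They were taken by symbol from a table of 54532 genes, all 10 were found, and 9 of them passed the filter on low counts that left 14706 genes for testing. Transcripts were counted by RNA sequencing in bone marrow cells of aged wild-type C57BL/6 mice described as haematopoietic stem and progenitor cells (HSPCs), in 3 libraries of cells given uridine, a pyrimidine nucleoside, and 3 libraries of cells given vehicle. Age in months, dose, duration, the vehicle and the surface markers behind the cell selection are not given in the labels, which describe the RNA as coming from cultured cells. By its title the study is about uridine as an anti-ageing factor of blood formation, and the question put to these genes is whether their transcripts differ with uridine.

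BCL2 family proteins decide whether the outer mitochondrial membrane stays closed. BAX and BAK open it and release cytochrome c, which starts the caspase cascade, while BCL2, BCL-XL (from Bcl2l1), MCL1 and A1 hold BAX, BAK and their activators in check. BH3-only proteins sense stress and growth factor withdrawal and either occupy the groove of the pro-survival proteins or activate BAX and BAK directly. In mice, loss of Mcl1 removes haematopoietic stem cells, and BIM (from Bcl2l11) restricts blood cell numbers.

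All these proteins meet through the BH3 helix, a short stretch that BH3-only and pore-forming proteins insert into the groove of a pro-survival partner and that forms part of the groove in the pro-survival proteins themselves. The mouse coding bases of this stretch are shown for the 8 members in which a search of GENCODE vM21 transcripts (GRCm38, the assembly of mm10) found it, because it takes part in the contact between members. Each line gives 27 bases, 5′ to 3′ on the coding strand, with the codon of the invariant leucine and the codons of the small residue and the aspartate in capitals.
Bcl2: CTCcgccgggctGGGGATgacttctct
Bcl2l1: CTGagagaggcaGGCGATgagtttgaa
Mcl1: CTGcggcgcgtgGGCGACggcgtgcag
Bcl2l11: CTGcggcggatcGGAGACgagttcaac
Bbc3: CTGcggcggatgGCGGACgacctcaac
Bid: CTCgcccaaataGGCGATgagatggac
Bax: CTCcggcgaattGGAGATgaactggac
Bak1: CTTgctctcatcGGAGATgatattaac
The small residue is glycine in all of these but Bbc3, where it is alanine. These stretches lie at chr1:106712575-106712601 (Bcl2, minus strand, exon 1 of its transcript), chr2:152829697-152829723 (Bcl2l1, minus, exon 2), chr3:95659436-95659462 (Mcl1, plus, exon 1), chr2:128147150-128147176 (Bcl2l11, plus, exon 3), chr7:16313773-16313799 (Bbc3, plus, exon 3), chr6:120897289-120897315 (Bid, minus, exon 4), chr7:45465997-45466023 (Bax, minus, exon 3) and chr17:27022531-27022557 (Bak1, minus, exon 4). The same search matched no stretch of Bcl2a1b, and none was read for Pmaip1.

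The libraries held 17083635, 18638627 and 16109265 counts with uridine and 17449008, 17890834 and 18037717 with vehicle. Values below are CPM, that is, counts relative to the library total with edgeR's TMM factors applied, and 3 counts correspond to 0.161 to 0.186 CPM. Each log2 fold change is uridine over vehicle and is given ± SE, and adjusted p-values are from edgeR's quasi-likelihood F test with Benjamini-Hochberg adjustment over all 14706 genes, with a gene called changed below 0.05. Of all genes tested 17.3% changed, 7.18% rising and 10.1% falling, and the libraries of the groups did not overlap for 30.8%. The median log2 fold change of all genes was 0.0053. Mitochondrial transcripts took 1.95 to 1.99% of counts with uridine and 1.80 to 1.81% with vehicle. No label says whether the replicates came from separate mice or cultures, so a p-value here reflects nothing more than how these samples vary, possibly for technical reasons.

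Of the 9 members tested, Pmaip1 and Bcl2l11 fell, Bcl2l1 rose and 6 did not pass the test. The large difference was that of Pmaip1, whose transcript was 3.20-fold lower with uridine. Bcl2l1 was 1.15-fold higher and Bcl2l11 1.22-fold lower. The same 3 members were those whose libraries did not overlap between the groups. With 9 genes tested, 3 called and 3 without overlap are read beside the 17.3% and 30.8% of all genes, and nothing about the members as a group is taken from those counts.

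**Figure D1:**
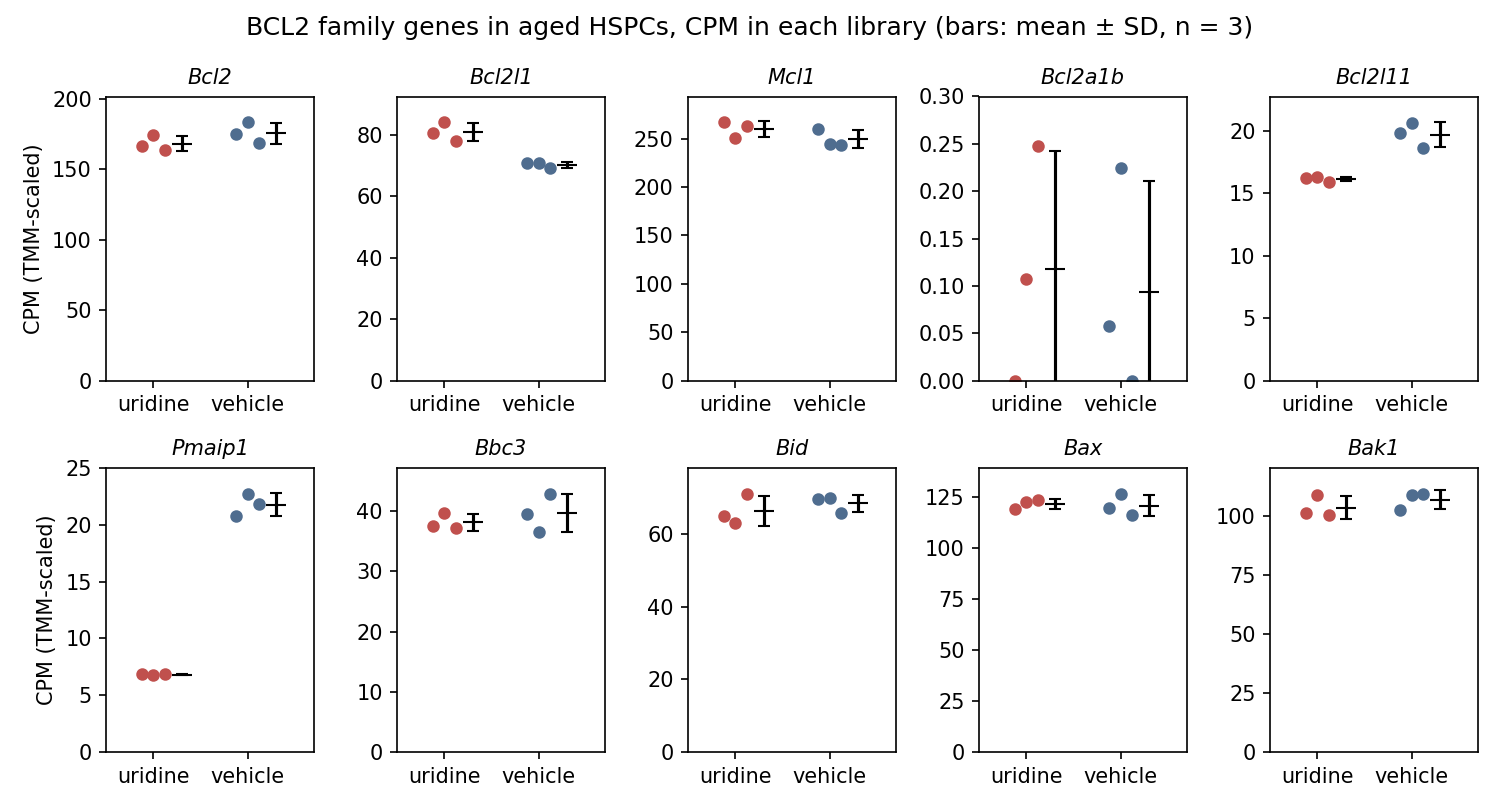
CPM of the 10 BCL2 family genes in each of 3 uridine libraries (red, left) and 3 vehicle libraries (blue, right), with the mean and SD as a bar beside the points and each vertical axis starting at 0. Pmaip1 lay at 6.75 to 6.89 CPM with uridine and at 20.8 to 22.8 CPM with vehicle, while the points of Bcl2, Mcl1, Bbc3, Bid, Bax and Bak1 overlapped between the groups.

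Pmaip1 encodes NOXA, a BH3-only protein that binds mainly MCL1 and A1 and hastens the degradation of MCL1. It is a textbook target of p53, and stress pathways outside p53 also induce it. The gene (ENSMUSG00000024521) lies on the plus strand of chromosome 18, at 66458604 to 66465550 in mm10. It held 117, 126 and 111 counts in the uridine libraries, against 361, 405 and 393 counts in the vehicle libraries. On the CPM scale this was 6.83, 6.75 and 6.89 CPM with uridine, against 20.8, 22.8 and 21.9 CPM with vehicle. All uridine libraries lay far below all vehicle libraries, and the gap between the groups was many times the spread within either. Pmaip1 fell by 1.68 on the log2 scale (SE 0.11, 95% confidence interval -1.90 to -1.46, adjusted p = 3.67e-21). By p-value it stood at position 48 of the 14706 genes, and by size it was the 75th of the 1488 genes that fell. The fall was called under all 16 alternative settings tried, between -1.71 and -1.64, with a highest adjusted p of 5.05e-13 in edgeR's, limma's and DESeq2's tests. In bulk RNA such as this, fewer cells of a type and less RNA of a gene per cell cannot be told apart.

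Bcl2l11 encodes BIM, a BH3-only protein that binds all pro-survival members, activates BAX and BAK, and accumulates when cytokines are withdrawn from blood cells. The gene (ENSMUSG00000027381) lies on the plus strand of chromosome 2, at 128126038 to 128162547. It measured 16.2, 16.3 and 15.9 CPM with uridine, against 19.8, 20.7 and 18.6 CPM with vehicle. The highest uridine library was below the lowest vehicle library. The log2 fold change was -0.29 ± 0.094 (95% confidence interval -0.47 to -0.10, adjusted p = 0.0230), the 648th by size of the genes that fell. This call is a close one. It was lost with DESeq2's Wald test (adjusted p = 0.0589), with the length trend removed (-0.26, adjusted p = 0.0518), and when uridine replicate 1, 2 or 3 or vehicle replicate 1 or 2 was left out, where the adjusted p ran from 0.0527 to 0.11 and the log2 fold change from -0.29 to -0.25.

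Bcl2l11 is a textbook target of FOXO factors in cells deprived of growth factors, and its promoter is shown for that reason. The window is the 250 bases before 1 of its annotated starts, chr2:128125788-128126037 on the plus strand (RefSeq, GRCm38.p6), with a match to the FOXO motif GTAAACA in capitals, 227 bases before the start.
Bcl2l11 promoter: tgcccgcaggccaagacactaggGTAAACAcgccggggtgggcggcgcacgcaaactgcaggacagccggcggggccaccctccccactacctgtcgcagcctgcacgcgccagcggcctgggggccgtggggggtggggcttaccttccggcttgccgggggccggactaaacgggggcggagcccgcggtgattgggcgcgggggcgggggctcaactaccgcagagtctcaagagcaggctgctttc
Searched on both strands in windows of 250 bases before to 50 bases after the start, this motif occurred in 3.65% of 32851 annotated promoters. The promoter of Pmaip1 was not searched for any motif, so nothing here applies to it. Among the other members searched, the FOXO motif occurred in a window of Bbc3. The STAT motif TTCNNNGAA (8.3% of promoters) occurred in no window of the members searched. The ATF4 motif TGATGNAA (3.97%) occurred in that of Bcl2a1b, and the p53 decamer (8.36%) in that of Bax. No window of a member searched held more than 1 of these motifs or of the NF-kB motif described below. A match says only that these letters are present, and Foxo3, which encodes a FOXO factor of blood stem cells, measured 191, 193 and 193 CPM with uridine, against 209, 196 and 201 CPM with vehicle (log2 fold change -0.070 ± 0.030, adjusted p = 0.101).

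The remaining BH3-only members did not pass the test. Bbc3 encodes PUMA, a p53-induced protein that binds every pro-survival member and is a main mediator of haematopoietic cell death after irradiation. It measured 37.6, 39.7 and 37.2 CPM with uridine, against 39.6, 36.6 and 42.9 CPM with vehicle, and the groups overlapped. Its log2 fold change was -0.057 ± 0.067 (95% confidence interval -0.19 to 0.076, adjusted p = 0.648), and it was 0.0036 when vehicle replicate 3 was left out. Bid links death receptors to mitochondria, since caspase-8 cleaves its protein into an activator of BAX and BAK. It measured 65.1, 63.1 and 71.3 CPM with uridine, against 69.8, 70.1 and 66.0 CPM with vehicle, again with overlap (-0.047 ± 0.050, 95% confidence interval -0.15 to 0.053, adjusted p = 0.604). Bid is uncertain because Bcl2l13, with up to 1797 counts per library, overlaps it on the opposite strand and the strand setting of the counting is not given in the sources used here.

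Among the pro-survival members, Bcl2l1 rose. Its main protein, BCL-XL, keeps maturing erythroid cells and platelets alive. The gene (ENSMUSG00000007659) lies on the minus strand of chromosome 2, at 152780668 to 152831728. It measured 80.7, 84.1 and 78.1 CPM with uridine, against 70.7, 70.9 and 69.2 CPM with vehicle. Every uridine library was above every vehicle library. The log2 fold change was 0.20 ± 0.046 (95% confidence interval 0.11 to 0.30, adjusted p = 5.3e-04), the 509th by size of the 1056 genes that rose. It was called under all 16 alternatives, between 0.18 and 0.23, with a highest adjusted p of 0.0116.

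Bcl2l1 is described as a target of STAT5 and of NF-kB. Of its 3 promoter windows 1 held a match to the NF-kB motif, which occurred in 4.51% of all promoters. That share is per window, so a gene with 3 windows has more occasions for a match. Here too a match says only that the letters are present. Bbc3 was the other member with such a match among those searched, which did not include Pmaip1. The stretch is shown as the 250 bases before that start, chr2:152830718-152830967 on the minus strand (RefSeq, GRCm38.p6), with the match in capitals 242 bases before the start.
Bcl2l1 promoter: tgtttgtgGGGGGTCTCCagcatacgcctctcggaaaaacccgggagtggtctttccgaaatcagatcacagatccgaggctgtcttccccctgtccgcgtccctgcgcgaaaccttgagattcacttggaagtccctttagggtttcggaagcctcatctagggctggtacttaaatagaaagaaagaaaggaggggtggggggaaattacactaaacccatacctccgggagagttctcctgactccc

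Mcl1, whose short-lived protein is the pro-survival factor on which haematopoietic stem cells depend most, did not pass the test. It measured 267, 251 and 263 CPM with uridine, against 260, 244 and 244 CPM with vehicle, and 1 vehicle library lay within the uridine range. The log2 fold change was 0.061 ± 0.028, the 95% confidence interval for this gene alone ran from 0.0045 to 0.12, and the p-value adjusted over all genes was 0.138. Leaving out uridine replicate 2 gave 0.088 (adjusted p = 0.0416) and leaving out vehicle replicate 1 gave 0.093 (adjusted p = 0.0234), so these libraries decide on which side of the threshold Mcl1 falls. Bcl2, the founding member, which holds BIM and BAX, measured 167, 174 and 164 CPM with uridine, against 175, 183 and 168 CPM with vehicle. The groups overlapped, and the log2 fold change was -0.061 ± 0.033 (95% confidence interval -0.13 to 0.0042, adjusted p = 0.214).

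Bcl2a1b encodes a copy of A1, a short-lived pro-survival protein of myeloid and lymphoid cells. It had 0, 2 and 4 counts in the uridine libraries, against 1, 4 and 0 in the vehicle libraries. These counts are around the floor of 3. The gene did not pass the count filter, so it was not tested and no fold is given. It has near-identical copies, and how reads with several best positions were counted is not given in the sources used here. Bcl2a1a had 1, 1 and 1 counts with uridine, against 6, 1 and 9 with vehicle, and Bcl2a1c had none in any library. Bcl2a1d had 6, 8 and 1 counts with uridine, against 16, 12 and 15 with vehicle (log2 fold change -1.47 ± 0.55, adjusted p = 0.0509), and it passed with limma-voom (-1.69, adjusted p = 0.0267) and with the length trend removed (-1.56, adjusted p = 0.0405). Bcl2a1d did not pass in the other 13 of 15 alternatives, with adjusted p up to 0.283. Its log2 fold change ran from -1.91 to -1.04 over all 15. Summed before the fit, the 4 copies had 7, 11 and 6 counts with uridine, against 23, 17 and 24 with vehicle, without overlap. The Bcl2a1 sum fell by 1.37 on the log2 scale (SE 0.45, adjusted p = 0.0220). That call rests on 24 counts with uridine and 64 with vehicle, and it was lost with DESeq2's Wald test (adjusted p = 0.0607) and when uridine replicate 1 or 3 or vehicle replicate 1 or 3 was left out (adjusted p 0.0867 to 0.0949).

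The pore-forming members showed no difference beyond the spread of the libraries. Bax, whose protein moves from the cytosol into the mitochondrial membrane on activation, measured 119, 122 and 123 CPM with uridine, against 119, 126 and 116 CPM with vehicle. Its log2 fold change was 0.010 ± 0.037 (95% confidence interval -0.064 to 0.085, adjusted p = 0.902), and its sign turned with the length trend removed (-0.039) and without uridine replicate 3 or vehicle replicate 3. Bak1, whose protein resides in that membrane and is restrained by MCL1 and BCL-XL, measured 101, 109 and 100.5 CPM with uridine, against 103, 109 and 110 CPM with vehicle. Its log2 fold change was -0.045 ± 0.040 (95% confidence interval -0.13 to 0.035, adjusted p = 0.513). Ggnbp1, with at most 101 counts per library, overlaps Bak1 on the opposite strand.

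**Figure D2:**
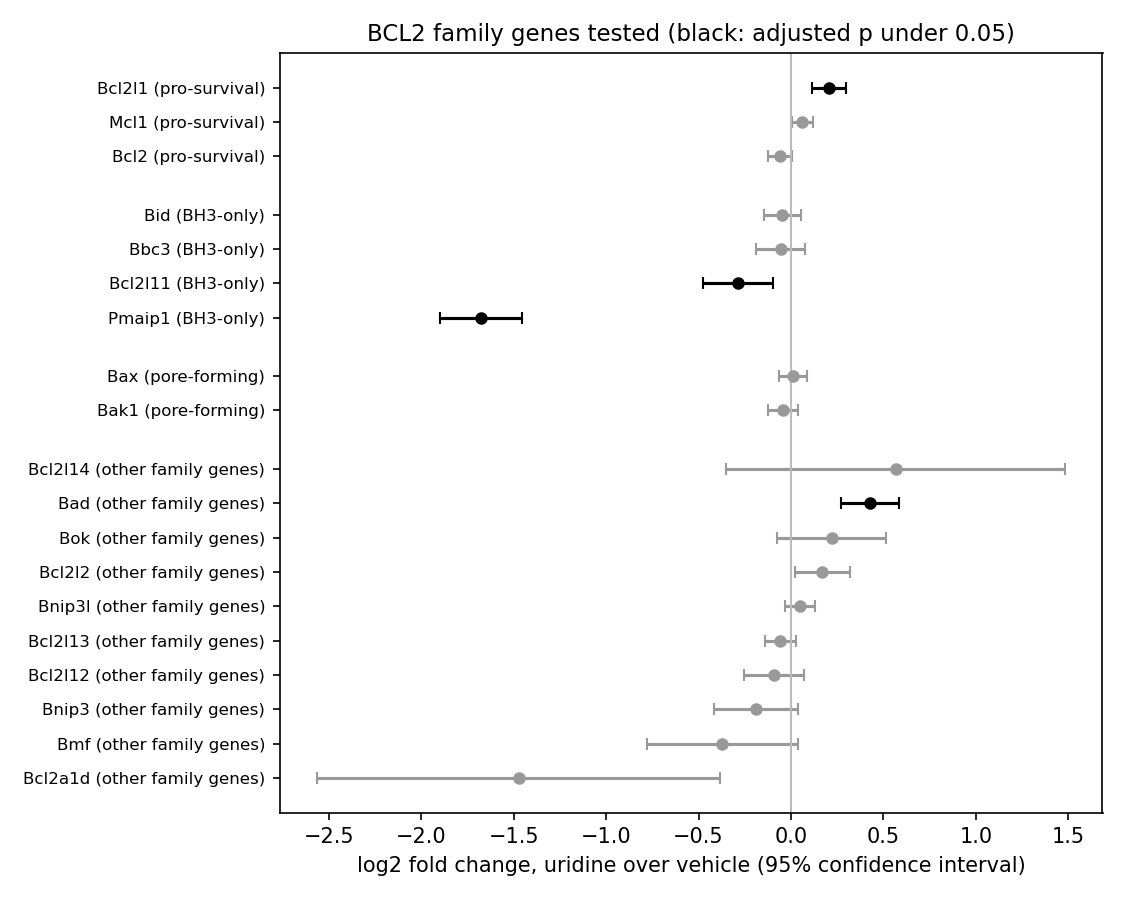
Log2 fold change of uridine over vehicle with its 95% confidence interval for the 9 members tested, by role, and for the 10 other BCL2 family genes tested. Black marks an adjusted p under 0.05 in edgeR's quasi-likelihood test: Bcl2l1 (0.20), Bcl2l11 (-0.29), Pmaip1 (-1.68) and, among the others, Bad (0.43).

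Transcript levels of different members were compared per length, as CPM per kilobase of the gene length given in the table. Bax (77.0 ± 1.51 with uridine and 76.5 ± 3.38 with vehicle; SD, n = 3 here and below) and Mcl1 (76.1 ± 2.47 and 73.0 ± 2.74) were the highest and overlapped each other in both groups. Bak1 came next at 43.1 ± 1.98 CPM per kilobase with uridine and 44.5 ± 1.62 with vehicle, apart from its neighbours on either side. Bid, at 18.7 ± 1.20 with uridine and 19.3 ± 0.65 with vehicle, could not be separated from Bcl2, at 18.4 ± 0.58 with uridine and 19.2 ± 0.81 with vehicle. Bcl2 in turn overlapped Bbc3, at 18.0 ± 0.64 with uridine and 18.7 ± 1.49 with vehicle. Bcl2l1 stood at 17.7 ± 0.66 CPM per kilobase with uridine and 15.3 ± 0.20 with vehicle. Its uridine libraries overlapped those of Bbc3, and its vehicle libraries lay below all of those of Bbc3.

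The lowest levels per length were those of Pmaip1, Bcl2l11 and Bcl2a1b. Pmaip1 stood at 2.58 ± 0.026 CPM per kilobase with uridine and 8.24 ± 0.37 with vehicle, and Bcl2l11 at 2.01 ± 0.023 with uridine and 2.45 ± 0.13 with vehicle. In the vehicle libraries Pmaip1 thus lay well above Bcl2l11, and in the uridine libraries it was close to it without overlap. Bcl2a1b was at 0.14 with uridine and 0.12 with vehicle. Per-length levels depend on the length the table assigns to a gene, which joins all its transcripts.

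**Figure D3:**
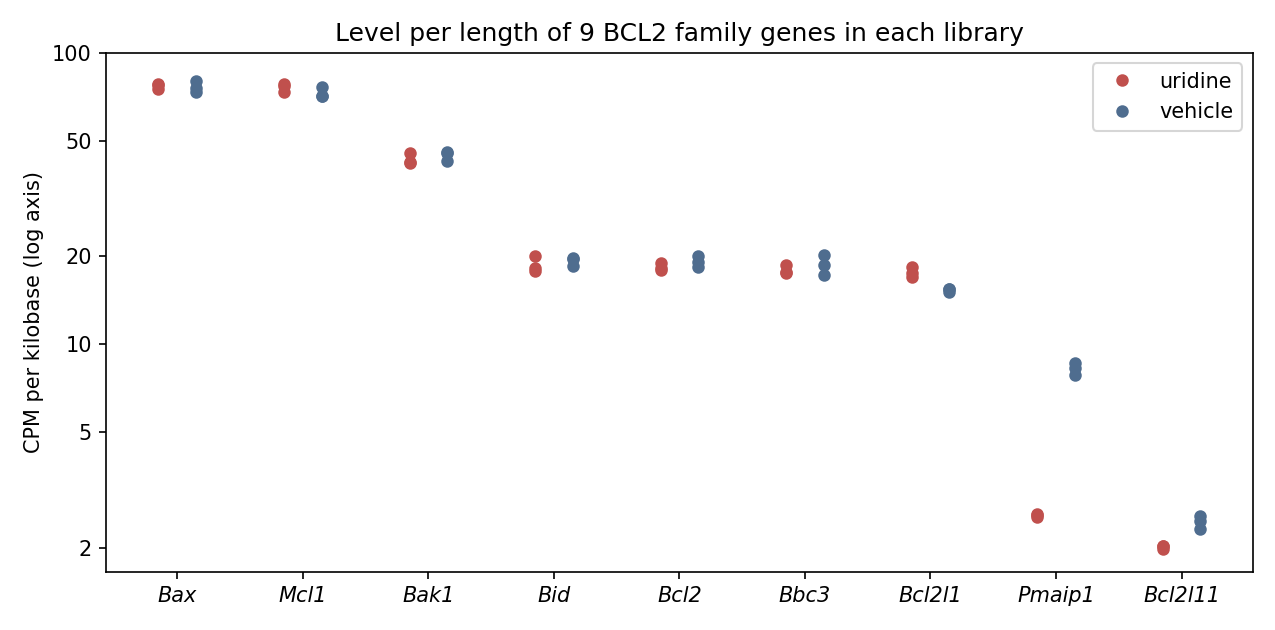
CPM per kilobase of gene length, on a log axis, of 9 BCL2 family genes in each uridine library (red, left) and vehicle library (blue, right); Bcl2a1b, at 0 in 1 library of each group, is left out. Pmaip1 is at 2.55 to 2.60 with uridine and at 7.85 to 8.60 with vehicle, and Bax and Mcl1 lie between 71.3 and 80.2 in all libraries.

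Summed by role, the 4 BH3-only members came to 40.6, 41.0 and 42.2 CPM per kilobase with uridine, against 48.6, 48.2 and 49.4 with vehicle. The groups did not overlap. The group means differed by -7.44 CPM per kilobase, of which Pmaip1 made up -5.66, Bcl2l11 -0.44, Bbc3 -0.73 and Bid -0.60. The 4 pro-survival members came to 114, 111 and 112 CPM per kilobase with uridine, against 111, 107 and 105 with vehicle. The lowest uridine library (110.8) and the highest vehicle library (110.7) lay side by side, so the groups were barely apart. The pore-forming members came to 120 ± 2.81 with uridine and 121 ± 3.93 with vehicle, with overlap. As shares of all 10 members, BH3-only transcripts made up 15.1 ± 0.25% with uridine and 17.6 ± 0.46% with vehicle. Pro-survival transcripts made up 41.0 ± 0.79% with uridine and 38.8 ± 0.94% with vehicle, and pore-forming transcripts 43.9 ± 0.80% with uridine and 43.6 ± 1.04% with vehicle. The BH3-only sum holds the listed members alone. Bad, a BH3-only gene outside them, rose, with a mean of 30.2 CPM with uridine and 22.4 CPM with vehicle. Bmf, also outside them, was lower with uridine and did not pass the test. The size of the fall in this sum thus depends on which BH3-only genes are listed. These sums describe transcripts and say nothing of protein amounts.

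Of 16 further BCL2 family genes, 10 passed the count filter, and 1 of these rose and none fell by edgeR's test (1 was lower at an unadjusted p under 0.05). Of all genes tested 7.18% rose and 10.1% fell, and nothing about these genes as a group is taken from the counts. Bad, a BH3-only gene whose protein is held inactive when survival kinases phosphorylate it, measured 32.0, 29.7 and 28.8 CPM with uridine, against 21.4, 22.4 and 23.4 CPM with vehicle. Every uridine library was above every vehicle library, and the log2 fold change was 0.43 ± 0.079 (adjusted p = 2.12e-05, called under all 16 alternatives). Bad thus went the opposite way to the BH3-only genes Pmaip1 and Bcl2l11. The pro-survival gene Bcl2l2 (BCL-W) gave 0.17 ± 0.075 (adjusted p = 0.113), and it passed without uridine replicate 2 (0.25, adjusted p = 0.0288) or vehicle replicate 1 (0.24, adjusted p = 0.0386). Bmf, a BH3-only gene, gave -0.37 ± 0.21 (adjusted p = 0.235), and Bok, a relative of Bax and Bak1, 0.22 ± 0.15 (adjusted p = 0.349). The mitophagy genes gave -0.19 ± 0.11 for Bnip3 (adjusted p = 0.283) and 0.049 ± 0.040 for Bnip3l (adjusted p = 0.462). Bcl2l12 (-0.092 ± 0.082), Bcl2l13 (-0.058 ± 0.042) and Bcl2l14 (0.57 ± 0.46) did not pass either, and Bik, Hrk, Bcl2l10, Bcl2l15, Bcl2a1a and Bcl2a1c had too few counts to be tested.

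Most monocyte and neutrophil markers moved in the same direction as Pmaip1 and Bcl2l11. All 15 monocyte and macrophage markers fell, with a median log2 fold change of -1.28, and their summed level was 362 to 363 CPM with uridine, against 773 to 794 CPM with vehicle. Among them Csf1r, the receptor of the macrophage growth factor, measured 21.0, 22.0 and 21.1 CPM with uridine, against 68.4, 63.3 and 70.2 CPM with vehicle. Of 14 neutrophil markers 12 were tested, of which 9 fell and 1 rose (median -0.69), and the sum was 1573 to 1616 CPM with uridine, against 2877 to 2949 CPM with vehicle. Mpo was the largest part of that sum, at a mean of 1044 CPM with uridine and 1945 CPM with vehicle. Most of the rest was Prtn3 (191 and 344.5 CPM), Ctsg (197 and 324 CPM) and Elane (115 and 230 CPM). The sum thus follows mainly these genes and is not a measure of neutrophil number. Ltf was the marker that rose (1.13 ± 0.19, adjusted p = 4.23e-06). Camp and Cxcr2 did not pass the test (adjusted p = 0.767 and 0.359). None of the markers of these lists was at 0 in all libraries, but Retnlg and Mmp9 had means under 1 CPM and were not tested. The part of these markers in the differences of Pmaip1, Bcl2l11 and the Bcl2a1 copies was not tested.

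The markers of the labelled cell type were present, and their summed level was 2233 to 2296 CPM with uridine, against 2204 to 2227 CPM with vehicle. Of these 14 HSPC markers 7 rose and 4 fell, and 4 rose without uridine replicate 2. Ly6a, which encodes the stem cell antigen SCA-1, fell to 2.74, 3.96 and 3.78 CPM with uridine, against 15.9, 14.8 and 14.3 CPM with vehicle. Of 5 megakaryocyte and platelet markers tested 3 rose and 2 fell, and the sum of 6 was 3007 to 3050 CPM with uridine, against 2761 to 2821 CPM with vehicle. Of 4 erythroid markers tested 2 rose and 1 was called as falling, a call lost with library totals, upper-quartile factors, DESeq2's Wald test, no count filter, the length trend removed or the replicate number as a block, and without any single library but vehicle replicate 2, while Hba-a1 was at 0 in every library. These are lineages that depend on BCL-XL, and the part of their markers in the rise of Bcl2l1 was not tested. Of 7 mast cell and basophil markers 2 rose and 1 fell, no B cell marker (of 5 tested, 1 higher at an unadjusted p under 0.05) or stromal marker (of 2 tested, 0 at that p) passed the test of edgeR, limma or DESeq2, and the 1 T or NK cell marker tested fell.

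**Figure D4:**
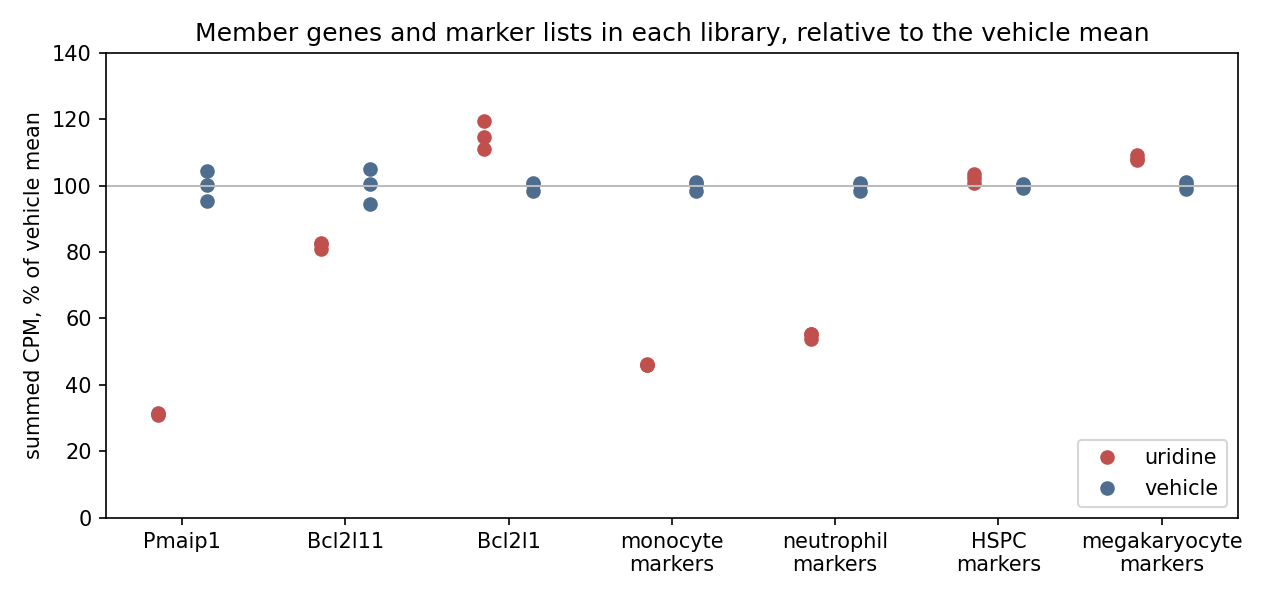
Level of Pmaip1, Bcl2l11 and Bcl2l1 and summed CPM of 4 marker lists in each uridine library (red, left) and vehicle library (blue, right), as a percentage of the vehicle mean. Pmaip1 was at 31.0 to 31.6% with uridine, monocyte markers at 46.1 to 46.2%, neutrophil markers at 53.9 to 55.3%, Bcl2l11 at 80.9 to 82.6% and Bcl2l1 at 111 to 120%. The neutrophil sum was mainly Mpo, Prtn3, Ctsg and Elane.

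The inputs and the downstream partners of the members were described from lists drawn up for this purpose. The counts of calls in these lists are read beside the 7.18% of all genes that rose and the 10.1% that fell. Nothing about a list as a group is taken from them. Neither Trp53 nor its targets Cdkn1a and Mdm2 passed the test. Trp53 itself measured 270, 274 and 266 CPM with uridine, against 277, 279 and 265 CPM with vehicle (log2 fold change -0.019 ± 0.026, adjusted p = 0.714). Cdkn1a, the cell cycle inhibitor, gave -0.078 ± 0.036 (adjusted p = 0.135, and 0.0466 without vehicle replicate 2), and Mdm2, which turns over p53, 0.060 ± 0.038 (adjusted p = 0.305). Of the 21 genes of p53 and its targets outside the family 5 fell and none rose by edgeR's test. At an unadjusted p under 0.05 in that test, 1 was higher and 7 were lower. Those called as falling were Ccng1, Zmat3, Trp53inp1, Xpc and Sesn1. Their log2 fold changes ran from -0.18 to -0.099, and each lost its call under at least 1 alternative. Of the list, 2 fell without vehicle replicate 1, 3 without any single uridine library and 3 with DESeq2's Wald test. The list's median was -0.016, against 0.0053 for all genes. The transcript level of Trp53 says nothing of the p53 protein, and the part of p53 in the level of Pmaip1 was not tested.

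Of 18 tested transcription factors described as regulating member genes, 8 fell and 2 rose (median -0.074). The number that fell depended on single libraries and on the scaling, with 4 falling without vehicle replicate 3 and 5 without vehicle replicate 1, with library totals or upper-quartile factors, with DESeq2's Wald test or with the length trend removed. Gfi1, a repressor of Bax, fell by 0.89 on the log2 scale (SE 0.099), to 12.4, 14.2 and 11.5 CPM with uridine, against 20.8, 24.0 and 25.9 CPM with vehicle. Rel, an NF-kB subunit that drives Bcl2a1 and Bcl2l1 in lymphocytes, gave -0.33 ± 0.064, and Nfkb1 -0.13 ± 0.028, which lost its call with the length trend removed (-0.074, adjusted p = 0.0624). Cebpa, a myeloid factor that raises Bcl2, gave -0.35 ± 0.037, and Myb, another inducer of Bcl2, -0.092 ± 0.024, which lost its call with the length trend removed (-0.055, adjusted p = 0.113) and without vehicle replicate 3. Hlf, a transcription factor of stem cells, rose (0.37 ± 0.045), as did Atf4, an inducer of Pmaip1 under stress (0.12 ± 0.029, adjusted p = 0.00113). Myc, Stat3 and Runx1 were also called as falling. The call was lost in 7 of 16 alternatives for Myc, whose groups overlapped, and in 10 of 16 each for Stat3 and Runx1, in every case also with library totals or upper-quartile factors and without vehicle replicate 1 or 3. The transcripts of Atf4 and Pmaip1 moved in opposite directions here, and the part of Atf4 in the level of Pmaip1 was not tested.

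Of 18 survival cytokine receptors and their signalling genes 5 rose (3 without uridine replicate 2) and 7 fell (median -0.066). Among the receptor genes that fell were Csf3r (-0.75 ± 0.047), Il6st (-0.73 ± 0.041), Csf2ra (-0.44 ± 0.055), Csf2rb2 (-0.45 ± 0.059), Csf2rb (-0.26 ± 0.031) and the progenitor receptor gene Flt3 (-0.32 ± 0.041), while Il3ra, named after its values were seen, gave -0.10 and did not pass (adjusted p = 0.341). Epor, Socs2, Pim2 and Kit were among those that rose. Kit, the stem cell factor receptor, gave 0.070 ± 0.023 (adjusted p = 0.0236), a call lost without uridine replicate 2 or 3, without vehicle replicate 2 and with no count filter. Csf2rb and Csf2rb2 are close copies that may share reads.

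Downstream of the mitochondria, 2 of 14 apoptosome and caspase genes fell and none rose by edgeR's test (median 0.031), with 4 higher at an unadjusted p under 0.05. Of all genes tested 10.1% fell, so this count is near the general share. Apaf1, the scaffold that cytochrome c assembles into the apoptosome, measured 114, 120 and 118 CPM with uridine, against 135, 126 and 132 CPM with vehicle (-0.16 ± 0.037, adjusted p = 0.00103). Casp9, the caspase it activates, gave -0.23 ± 0.070 (adjusted p = 0.0117), a call lost without uridine replicate 1 or 2 or vehicle replicate 2. Of 5 inhibitor of apoptosis genes, Birc6 fell (-0.21 ± 0.024), and so did Xiap, an inhibitor of caspase-9 (-0.11 ± 0.038, adjusted p = 0.0270). The call of Xiap was lost in 7 of 16 alternatives, among them each of uridine replicates 1 and 2 and vehicle replicates 1 and 3 left out, with adjusted p up to 0.229. Birc6 kept its call, at -0.095 with the length trend removed.

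Of 15 tested death receptor and necroptosis genes 3 fell and 1 rose (median 0.021). The receptor genes Tnfrsf1a (-0.27 ± 0.044) and Tnfrsf1b (-0.29 ± 0.049) and the ligand gene Tnf (-0.50 ± 0.14) fell, the call of Tnf being lost without uridine replicate 3 or vehicle replicate 3. Ripk3 rose (0.12 ± 0.042, adjusted p = 0.0365), a call lost in 8 of 16 alternatives. Of 10 genes whose proteins bind or turn over BCL2 family proteins 2 fell and none rose by edgeR's test (median 0.033), with 3 higher at an unadjusted p under 0.05. The absence of rises depended on the scaling, since 2 rose with library totals or upper-quartile factors, and 1 rose with the stricter count filter or without vehicle replicate 3. Usp9x, which removes ubiquitin from MCL1, gave -0.20 ± 0.027, and Huwe1, an E3 ligase of MCL1, -0.15 ± 0.018, which lost its call with the length trend removed (-0.049, adjusted p = 0.0560).

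**Figure D5:**
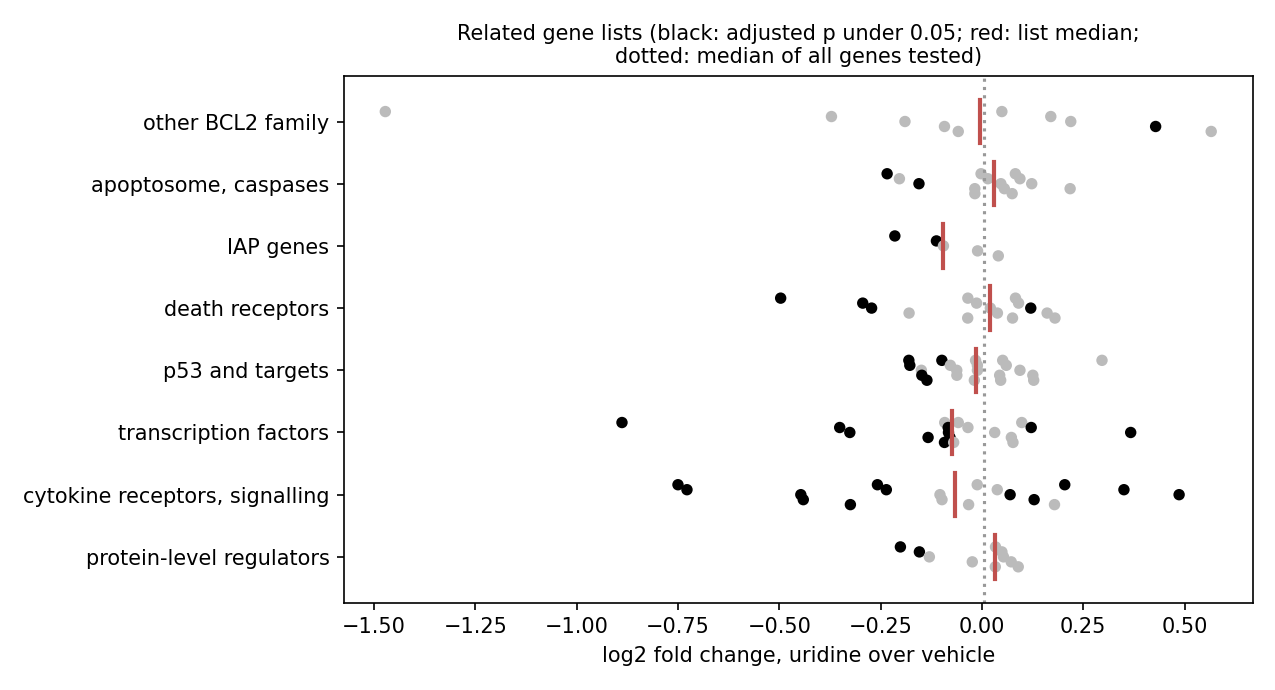
Log2 fold change of uridine over vehicle of each tested gene in 8 related lists, with black points for an adjusted p under 0.05 in edgeR's test, a red line at the list's median and a dotted line at the median of all genes (0.0053). The list medians lie between -0.095 (inhibitor of apoptosis genes) and 0.033, and the outermost points, Bcl2a1d (-1.47) and Bcl2l14 (0.57), did not pass the test.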

How the data were processed

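The authors deposited 1 table of whole-number counts, a column for each of the 6 libraries, with each gene's position, biotype and length. Per the labels' protocols, poly-T beads were used to take up mRNA, which was read in pairs on a NovaSeq instrument. Alignment with HISAT2 2.0.5 to mm10 is named in the submitters' processing notes. The sources used here do not give the counting program, annotation release, strand setting or treatment of multi-mapping reads.

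Counts were used as deposited. Genes with low counts were removed by filterByExpr at its default settings, libraries were scaled by TMM factors, and the test was the quasi-likelihood F test of edgeR 4.0.16 in R 4.3.3 (robust glmQLFit, treatment as the single term, all 6 libraries). Adjusted p-values are Benjamini-Hochberg over 14706 genes, with calls below 0.05. The test was tried on simulated counts. Of 50 genes changed at each fold it recovered 16% at 1.1-fold, 64% at 1.25-fold, 100% at 1.5-fold and 96% at 2-fold. Of its 150 calls 12 were genes left unchanged. Small differences can thus be missed, and a gene that did not pass is not shown to be unchanged. Between replicates the chi-square per gene was 2.28 to 2.52, where sampling noise gives about 1, so none was treated as a duplicate.

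The members and all gene lists were chosen with earlier results of these data known, so their counts are descriptions and not independent evidence. The genes named are the members, every other BCL2 family gene, called genes of the related lists (with values for at most the 6 smallest p-values in each), Trp53, Mdm2, Cdkn1a, Casp9, Apaf1, Xiap, Cflar, Foxo3, Myb and Kit, and the markers Csf1r, Mpo, Elane and Ly6a. Hba-a1, Il3ra, Ltf, Camp, Cxcr2, Prtn3, Ctsg, Retnlg and Mmp9 were named after their values were seen. Some genes of the lists are counted but not reported by name here. BH3 stretches were found by translating GENCODE vM21 transcripts, and promoters are from RefSeq GRCm38.p6; 9 of 10 members were searched for each, without Pmaip1. The alternatives were 3 other scalings, the Wald test of DESeq2 1.42.0, limma-voom (3.58.1), 2 other count filters, removal of the trend with gene length, the replicate number as a block, and each library left out in turn.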

Additional observations from a re-analysis of the deposited data

How the results depend on the processing

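Of the 9 members tested, 7 kept their direction under every alternative run, as did 52 of 53 other genes examined in the same way. The number of members that rose was 1 to 2 and the number that fell 1 to 2 as each library was left out, and 1 member fell with DESeq2's Wald test, after removal of the length trend, and after that removal together with the replicate block; the member lost was Bcl2l11 each time. Among all genes, 688 rose with DESeq2's Wald test. The sign of Bbc3 turned (-0.11 to 0.0036 as libraries were left out). That of Bax turned on removal of the length trend (-0.039, and -0.039 with the replicate block added) and ran from -0.017 to 0.046 as libraries were left out. Cflar, an inhibitor of caspase-8 that measured 121, 118 and 118 CPM with uridine, against 124, 118 and 118 CPM with vehicle (-0.013 ± 0.037), gave 0.049 on that removal, with or without the block, and -0.025 to 0.011 as libraries were left out. The cause of these changes was not tested. With the replicate block, 1 member rose and 2 fell, and 972 genes rose and 1428 fell. Same-numbered libraries correlated at -0.013, 0.023 and 0.018 in their deviations from the group means, and not every library correlated best with its own number, so the numbers are not taken as pairs. The Bcl2a1 sum could not be tested with a mean of at least 50 counts. Depth limits what can be said of Bcl2a1b and its copies.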

Other observations

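Ratios of member pairs, chosen after the values were seen and computed per length within each library, are given without a test. The ratio of Mcl1 to Pmaip1, the pair in which NOXA acts on MCL1, was 30.3, 28.8 and 29.6 with uridine, against 9.69, 8.31 and 8.63 with vehicle. Bcl2l1 over Bcl2l11 was 8.71, 9.04 and 8.58 with uridine, against 6.25, 6.00 and 6.50 with vehicle. Bcl2 over Bax was 0.241, 0.245 and 0.229 with uridine, against 0.252, 0.250 and 0.250 with vehicle. The libraries of the groups did not overlap for any of these pairs, nor for 30.8% of all single genes tested, and nothing is taken from that count. Bcl2 and Bax each overlapped between the groups when taken singly. The other ratios contain Pmaip1, Bcl2l1 or Bcl2l11, which were already called. As shares of the summed level of all 10 members, Pmaip1 held 0.94 ± 0.012% with uridine and 2.97 ± 0.13% with vehicle, Bcl2l1 6.45 ± 0.23% with uridine and 5.53 ± 0.026% with vehicle, and Mcl1 27.8 ± 1.04% with uridine and 26.3 ± 1.01% with vehicle (SD, n = 3 each).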
